A study of Canis lupus familiaris with 32 samples.

Results

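HSPA9, HSPD1 and HSPE1, the chaperones that fold proteins inside mitochondria, were followed over 32 primary osteosarcomas of dogs. Every array probe whose platform annotation carried one of these 3 gene symbols was taken, which gave 6 probes of the 22176 on the array and 3 of its 5246 named genes. HSPA9 had 3 probes (array identifiers 2845, 7926 and 14886, called probes 1, 2 and 3 here), HSPD1 had 2 (3227 and 15902, called probes 1 and 2) and HSPE1 had 1 (11988). The tumors came from dogs with no treatment before surgery. Short survivors (SS, 16 dogs) lived for fewer than 6 months and long survivors (LS, 16 dogs) for 6 months or longer. After surgery 9 SS dogs and 12 LS dogs received chemotherapy, the SS group held 13 high grade tumors and the LS group 12, and each group held 7 females and 9 males. Each tumor was hybridized on 1 dual-color cDNA array against a pool of RNA from all 32 tumors, so the value of a probe is the log2 ratio of that tumor over the pool, and 0 is the level of the pool. In each survival group 8 tumors were labeled with Cy5 and 8 with Cy3. Each tumor came from a separate dog.

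Most mitochondrial proteins are made in the cytosol, enter the organelle unfolded and are refolded in its matrix. HSPA9 (mortalin) is the HSP70 of the matrix, where it pulls incoming chains through the inner membrane, holds them, and also serves iron-sulfur cluster assembly. HSPD1 (HSP60) forms a barrel in which a chain can fold, and HSPE1 (HSP10) is the lid of that barrel. The HSPD1 and HSPE1 genes are adjacent in the RefSeq annotation of the dog, and in mammals they lie head to head on a shared promoter. In tumors these chaperones are best known for helping cells to tolerate a high load of mitochondrial protein and for blocking cell death.

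The medians of the arrays lay between -0.03 and 0.02 and their standard deviations between 0.47 and 0.76. The mean values of the probes over the Cy5-labeled and the Cy3-labeled tumors were correlated at -0.66 across all 22176 probes. Because the pool held every tumor, means over complementary sets of arrays tend to oppose each other. That value alone therefore does not measure the dyes. The dyes left a strong mark in the test: 64.4% of probes differed between the orientations (limma, adjusted p under 0.10). Of the 6 chaperone probes only HSPA9 probe 2 did so, at a Cy5 minus Cy3 difference of -0.38 (SE 0.17, limma adjusted p = 0.050), and the other 5 differed by between -0.33 and 0.07. Each value is relative to the pool and signals of the single channels were not analysed here, so whether bone-forming cells were present in a tumor could not be checked from the level of their markers. The tissue was whole tumor, in which fewer cells of a type and less RNA per cell cannot be told apart.

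The means of HSPA9, HSPD1 and HSPE1 were above the pool in SS tumors and below it in LS tumors at all 6 probes, and the SS mean was higher by between 1.38-fold and 1.56-fold. None of these differences passed the test across all probes. HSPA9 and HSPD1 were among the genes that the study itself selected on these same arrays, so the direction of their differences is not independent evidence.

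HSPA9 probe 3 showed the largest difference among the 3 probes of the matrix HSP70. Its lowest, median and highest log2 ratios were -0.88, -0.06 and 2.14 in SS tumors and -1.15, -0.56 and 0.10 in LS tumors. The groups overlapped, but 7 of 16 SS tumors lay above the highest LS tumor, and 13 of 16 lay above the LS mean. The mean was 0.18 ± 0.74 (SD, n = 16) in SS and -0.46 ± 0.38 (SD, n = 16) in LS. The difference on the log2 scale was 0.64 (SE 0.20, limma adjusted p = 0.50), a ratio of 1.56 with a 95% interval of 1.18 to 2.08.

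HSPA9 probe 2 ran from -0.75 through a median of 0.02 to 1.59 in SS and from -1.42 through -0.30 to 0.19 in LS. The difference was 0.52 (SE 0.18, limma adjusted p = 0.55), and the LS mean was exceeded by 13 of 16 SS tumors. HSPA9 probe 1 ran from -1.11 through 0.15 to 0.99 in SS and from -1.02 through -0.20 to 0.12 in LS, and the means differed by 0.46 (SE 0.17, limma adjusted p = 0.57). At probe 1 the SS group reached as low as the LS group, yet 9 of its 16 tumors exceeded every LS tumor. The same SS tumor, number 10, gave the highest value at all 3 HSPA9 probes, and the same LS tumor, number 29, gave the lowest LS value at each.

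HSPD1, the barrel of the matrix chaperonin, had a narrower spread at probe 1 than at probe 2. Probe 1 ran from -0.69 through a median of 0.06 to 0.84 in SS and from -0.81 through -0.40 to 0.54 in LS. Its means were 0.13 ± 0.47 (SD, n = 16) and -0.34 ± 0.34 (SD, n = 16), and the difference of 0.47 (SE 0.14, limma adjusted p = 0.45) had the smallest p of the 6 probes. Only LS tumor 20 reached above the SS mean at this probe. Probe 2 ran from -1.38 through 0.41 to 1.31 in SS and from -1.42 through -0.44 to 0.88 in LS. Its difference of 0.59 was larger than that of probe 1, but so was its standard error, 0.24 (limma adjusted p = 0.62), and 1 SS tumor lay above all LS tumors.

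HSPE1, the lid of the chaperonin, ran from -0.58 through a median of 0.13 to 1.20 in SS and from -0.94 through -0.33 to 0.51 in LS. Its means were 0.16 ± 0.53 (SD, n = 16) in SS and -0.30 ± 0.34 (SD, n = 16) in LS. They differed by 0.46 (SE 0.15, limma adjusted p = 0.54), which is a ratio of 1.38. Of the SS tumors 12 of 16 lay above the LS mean, and 2 of 16 LS tumors lay above the SS mean.

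**Figure D1:**
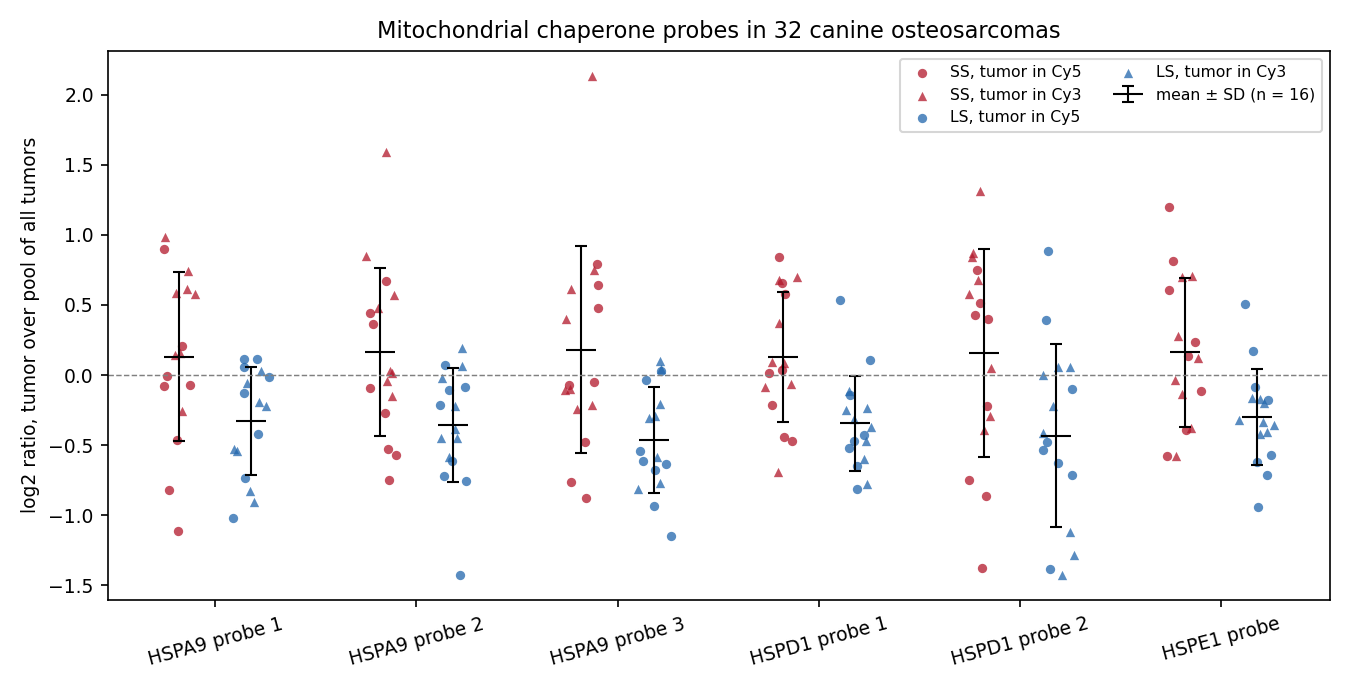
Log2 ratio of each tumor over the pool (vertical axis) for the 6 chaperone probes (horizontal axis) in SS (red) and LS (blue) tumors, with circles for tumors in Cy5, triangles for tumors in Cy3, and black lines for the mean ± SD of 16 tumors. At every probe the SS mean is above 0 and the LS mean below 0 while the points overlap, and SS tumor 10 stands at 2.14 at HSPA9 probe 3.

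Over the whole array limma called 0 of 22176 probes between SS and LS at an adjusted p under 0.10 (0.0%), and hence 0 of the 6. At an unadjusted p under 0.05 it named all 6 chaperone probes as higher in SS, where 805 of 22176 probes (3.63%) were higher and 7.13% differed in either direction. The unadjusted p ran from 0.0021 for HSPD1 probe 1 to 0.020 for HSPD1 probe 2, and permuting the survival labels gave values from 0.0025 to 0.025 (two-sided permutation tests). Significance Analysis of Microarrays (SAM), the method of the study, was rebuilt here. It called 38 probes (0.171%) at a false discovery rate of 10% and none of the 6. By the size of its statistic toward SS, HSPD1 probe 1 stood at rank 49 and HSPA9 probe 3 at rank 53 and HSPE1 at rank 100. The study's own SAM run did select HSPA9 and HSPD1 at a false discovery rate of 10%, so the rebuilt SAM differed from it. The reason for that difference was not tested. When the probes of a gene were averaged and the 5246 named genes tested, the differences were 0.54 for HSPA9 (limma adjusted p = 0.36), 0.53 for HSPD1 (0.38) and 0.46 for HSPE1 (0.38).

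With the dye orientation as a block, limma called 94 probes (0.424%) and still none of the 6, whose adjusted p then lay between 0.16 and 0.27. All 6 differences were positive within the Cy5-labeled tumors and within the Cy3-labeled tumors, a pattern found for 22.8% of all probes. Within Cy5 they ran from 0.07 at HSPA9 probe 1 to 0.54 at HSPE1, and none passed (limma adjusted p from 0.35 to 0.94, against 5.91% of all probes called). Within Cy3 they ran from 0.38 at HSPE1 to 1.00 at HSPD1 probe 2. HSPA9 probe 1 (0.85, limma adjusted p = 0.024), HSPA9 probe 2 (0.65, 0.097), HSPD1 probe 1 (0.53, 0.085) and HSPD1 probe 2 (1.00, 0.061) were higher in SS there, where 9.6% of all probes were called and 3.0% were higher. HSPA9 probe 3 (0.76, 0.13) and HSPE1 (0.38, 0.17) did not pass.

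The difference between the orientations was tested itself and passed at none of the 6 probes, against 10.8% of all probes. It came closest at HSPA9 probe 1, where the Cy5 effect minus the Cy3 effect was -0.78 (SE 0.32, limma interaction, adjusted p = 0.15). At HSPD1 probe 2 it was -0.82 (SE 0.47, limma interaction, adjusted p = 0.33). HSPE1 was the only probe at which the Cy5 effect was the larger, by 0.16 (SE 0.31, limma interaction, adjusted p = 0.83). With sex, chemotherapy, grade and orientation in the model, the 6 differences were between 0.41 and 0.58 and their adjusted p between 0.23 and 0.36 (0.135% of all probes called).

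**Figure D2:**
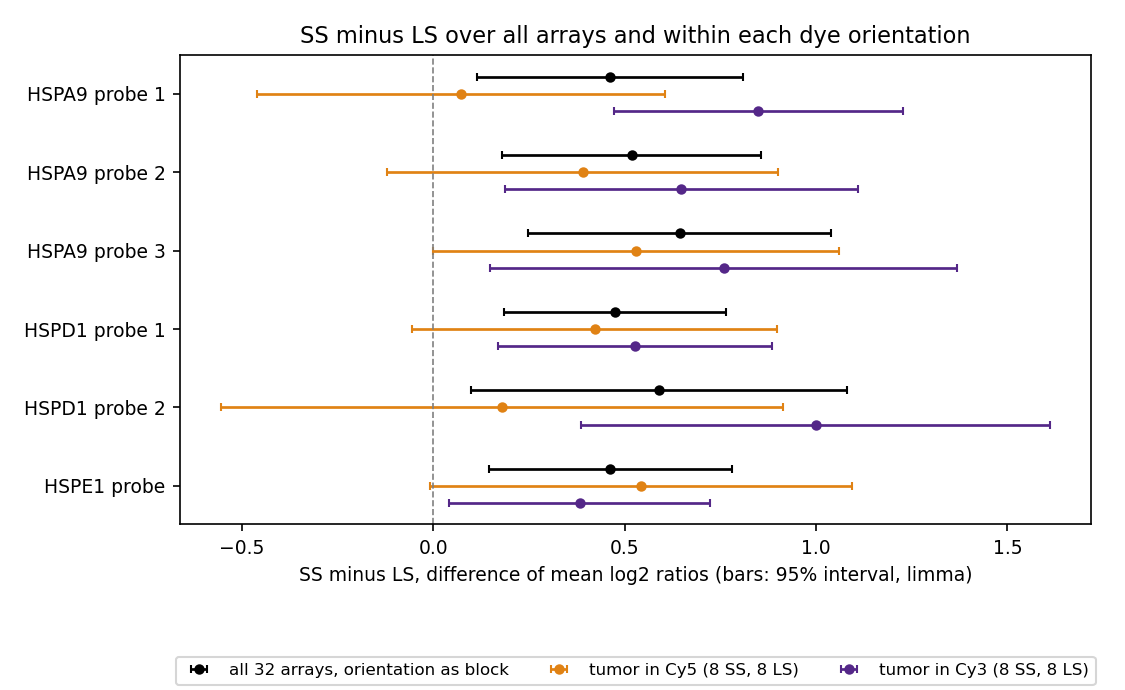
Difference of mean log2 ratios, SS minus LS (horizontal axis), with the 95% interval from limma for each chaperone probe (vertical axis), over all 32 arrays with the orientation as a block (black), within the tumors in Cy5 (orange) and within the tumors in Cy3 (purple). All 18 points lie to the right of 0, and the intervals within Cy5 all reach below 0.

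The levels of the 3 genes varied together from tumor to tumor. In 5 of 16 SS tumors all 6 probes were above the pool and in 2 all 6 were below it. In LS tumors all 6 were above the pool in 0 of 16 and below it in 7. SS tumors 10, 1, 13, 15 and 16 had all 6 above the pool, with mean log2 ratios over the 6 probes of 0.92, 0.76, 0.69, 0.67 and 0.62. SS tumors 6 and 7 were low throughout, at -0.61 and -0.76, and lay below most LS tumors. LS tumor 29 was the lowest of all at -1.12, and LS tumor 30 the highest of its group at 0.18.

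To leave the group difference and the dye out of the co-expression, the values were centered within each survival group and orientation. All 15 pairs of probes were then positively correlated over the 32 tumors, and all 15 passed after Benjamini-Hochberg adjustment over the pairs (two-sided permutation tests of Pearson's r and of Spearman's rho, permuting within group and orientation). Probes that share a gene symbol do not stand for separate genes, and whether they report the same transcript was not checked. Among the HSPA9 probes r was 0.77, 0.72 and 0.93. The HSPD1 probes were correlated at r = 0.74, with 0.92 within Cy5 and 0.46 within Cy3, where the pair did not pass.

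Between genes, the highest r over all 32 tumors were those of the barrel with the lid of the chaperonin. HSPD1 probe 1 and HSPE1 had r = 0.79 and rho = 0.77 (permutation test, adjusted p = 3e-05 for r and 9e-05 for rho), and r was 0.85 without the 2 tumors farthest from the median of HSPD1. Their r was 0.77 within Cy5, 0.85 within Cy3, 0.91 within SS and 0.55 within LS. HSPD1 probe 2 and HSPE1 had r = 0.74 and rho = 0.76 (0.67 without the 2 farthest tumors, 0.78 within Cy5, 0.68 within Cy3, 0.85 within SS, 0.59 within LS). The order did not hold in every subset: within LS HSPA9 probe 2 with HSPD1 probe 2 had the highest r between genes, 0.75, and within Cy5 HSPA9 probe 1 with HSPD1 probe 2 did, at 0.78.

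HSPA9 had r from 0.50 to 0.70 in its 6 pairs with HSPD1 and from 0.51 to 0.69 in its 3 pairs with HSPE1. With HSPD1 it was 0.62 to 0.78 within Cy5, 0.37 to 0.60 within Cy3, 0.54 to 0.73 within SS and 0.43 to 0.75 within LS. With HSPE1 it was 0.63 to 0.73 within Cy5, 0.40 to 0.60 within Cy3, 0.53 to 0.77 within SS and 0.46 to 0.66 within LS. Within LS these ranges spanned the values of HSPD1 with HSPE1. The weakest pair was HSPA9 probe 3 with HSPD1 probe 1, at r = 0.50 and rho = 0.62 (permutation test, adjusted p = 0.011 for r and 0.00090 for rho). SS tumor 10, far above the others at HSPA9 probe 3, weighed on that pair, whose r was 0.65 without it. A difference between r values was not tested.

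The rank of each chaperone probe among all probes by r is given as a description over the same 32 arrays. For HSPD1 probe 1, HSPE1 was the second closest of 22175 other probes by r and HSPD1 probe 2 the third. For HSPE1, HSPD1 probe 1 was the second closest and HSPD1 probe 2 stood at rank 11. For HSPD1 probe 2 the ranks were lower, at 42 for HSPD1 probe 1 and 47 for HSPE1. HSPA9 probes 2 and 3 were each other's closest probe, and for HSPA9 probe 1 the HSPD1 and HSPE1 probes held ranks 74, 99 and 272. For HSPA9 probe 3 the HSPD1 and HSPE1 probes held ranks 204, 209 and 230. In the opposite direction, HSPA9 probe 3 stood at rank 393 for HSPD1 probe 1, 931 for HSPD1 probe 2 and 557 for HSPE1. HSPA9 probe 1 stood there at ranks 65, 87 and 20. HSPA9 probe 2 stood at rank 261 for HSPD1 probe 2. The median r with all other probes was between -0.04 and -0.02 for the 6 probes. The 99th percentile ran from 0.50 for HSPA9 probe 3 to 0.64 for HSPD1 probe 2.

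**Figure D3:**
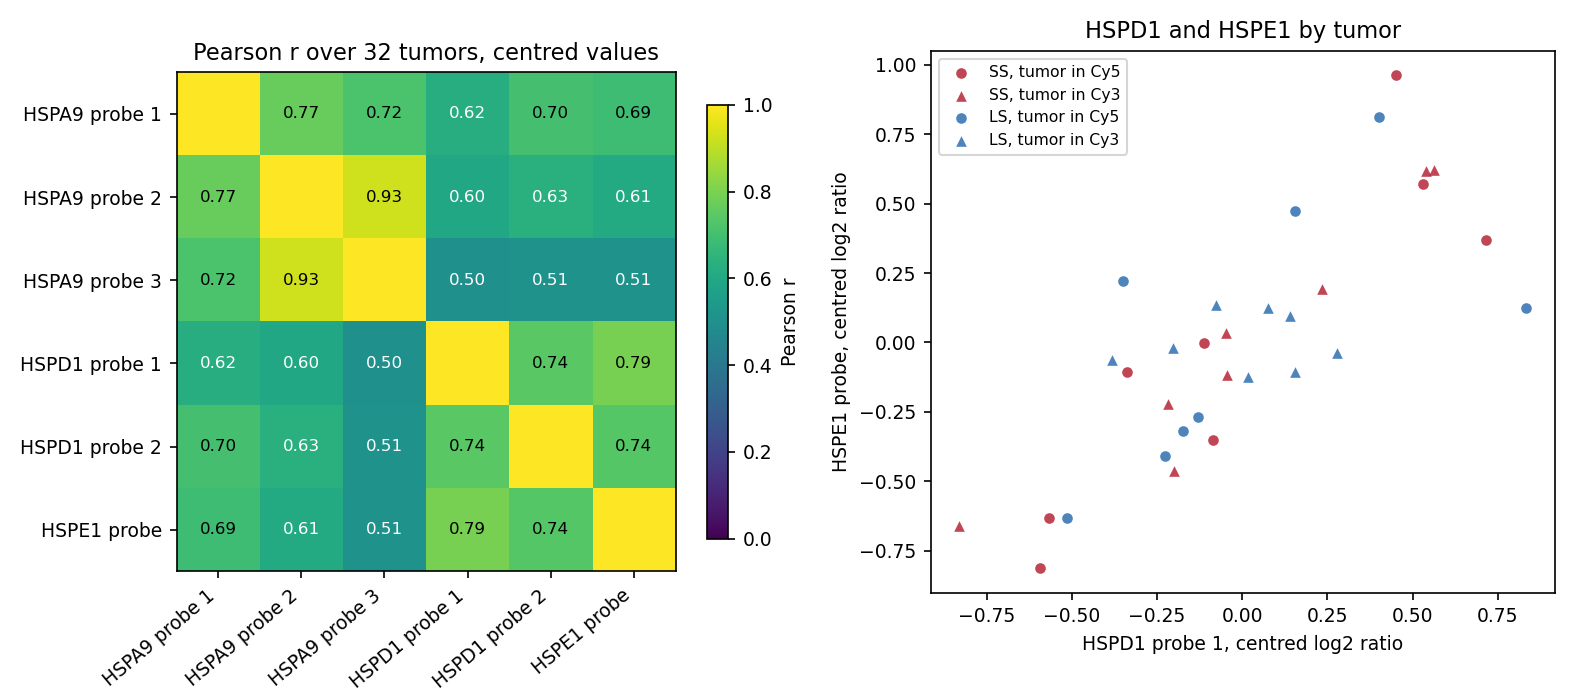
Left, Pearson r of each pair of chaperone probes over 32 tumors after centering within survival group and dye orientation (color scale 0 to 1). Right, centered log2 ratio of HSPE1 (vertical axis) against HSPD1 probe 1 (horizontal axis) for SS (red) and LS (blue) tumors in Cy5 (circles) or Cy3 (triangles). All r are positive, from 0.50 to 0.93, and the points on the right follow r = 0.79.

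The 5 named genes with the highest r to HSPA9, at its probe 3, were ATP5F1A, a subunit of the ATP synthase (r = 0.73), WBP11, a splicing factor (0.72), SDHB, the iron-sulfur subunit of succinate dehydrogenase (0.69), NNT, the transhydrogenase of the inner membrane (0.69), and PDHA1, a subunit of pyruvate dehydrogenase (0.69). A second NNT probe had r = 0.69, whereas the other PDHA1 probes had -0.21 and 0.40 and the other WBP11 probes 0.27 and 0.40. None of the 5 passed the test between SS and LS (differences of 0.05 to 0.20, limma adjusted p from 0.84 to 0.94). The most opposed were CHD1L, a chromatin remodeler (-0.69), KYAT1, a kynurenine aminotransferase (-0.68), and RAB11B, a regulator of recycling endosomes (-0.66).

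The genes most like HSPD1 probe 1 were ABI2, a regulator of actin assembly (0.72), EIF3B, a subunit of a translation initiation factor (0.70), WDR77, a partner of an arginine methyltransferase (0.70), FABP3, a fatty acid binding protein (0.70), and GSPT1, a translation termination factor (0.69). MTURN (-0.74), the lysosomal protease CTSF (-0.73) and AKTIP (-0.69) were the most opposed. Other EIF3B probes had 0.50 and 0.64. The most like HSPE1 were XRN2, a nuclear exoribonuclease (0.78), SLC25A5, an ADP/ATP carrier of the inner membrane (0.78), WDR37 (0.75), SRP68 of the signal recognition particle (0.75) and PRPS1, an enzyme of nucleotide synthesis (0.74). The other XRN2 probes had 0.37 and 0.45 and the other SRP68 probe 0.59. EFEMP2, a matrix protein of elastic fibers, CTSF and the complement inhibitor SERPING1 were the most opposed to HSPE1, each at -0.67. CTSF was thus at the opposed end for both partners of the chaperonin, and all 3 of its probes were (r from -0.73 to -0.65). The opposed r of EFEMP2 was -0.88 within Cy5 and -0.16 within Cy3, and the other genes named here kept their sign within each orientation.

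Survival time was examined next, with times in days from the study's table of dogs, which does not mark the LS dogs whose times were censored. In a limma fit with the orientation as a block, all 6 probes were higher at shorter survival. The slopes were between 0.45 and 0.66 on the log2 scale per log10 unit of time (adjusted p from 0.031 for HSPD1 probe 1 to 0.084 for HSPA9 probe 3), and 3.17% of all probes were called in that direction. This fit runs over both survival groups, so it holds the same difference between SS and LS. Within SS the Pearson r of level with log10 survival time, after centering by orientation, ran from -0.39 for HSPE1 to -0.01 for HSPA9 probe 3. Within LS it ran from -0.42 for HSPA9 probe 2 to -0.20 for HSPE1.

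None of these 12 within-group correlations passed after adjustment over the 12 (permutation tests, adjusted p from 0.35 to 0.97). All 12 were below 0, but within SS the r of HSPA9 probe 2 was 0.06 and that of probe 3 was 0.17 without the 2 dogs farthest from the median time, and within the Cy3-labeled SS tumors HSPA9 probes 1 and 3 had 0.07 and 0.09. Of Spearman's rho the most negative was that of HSPA9 probe 1 within LS, at -0.61 (permutation test, adjusted p = 0.16), and the rho of that probe within SS was 0. The r of HSPA9 probe 1 within LS was -0.34, with -0.04 in Cy5 and -0.69 in Cy3, and -0.46 without the 2 dogs farthest from the median time. The r of HSPE1 within SS was -0.64 in Cy5 and -0.14 in Cy3, and -0.34 without the 2 farthest dogs. An order of the levels by survival time inside a group was therefore not detectable with 16 dogs.

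The measured part of the other mitochondrial folding and import machinery had median differences near that of all probes. Only 6 of 14 listed matrix chaperone genes and 6 of 16 iron-sulfur cluster genes had a probe. Of the listed protease genes 10 of 17 had one, and of the import genes 17 of 27. The median SS minus LS difference was 0.03 over 13 probes of other matrix chaperones and co-chaperones, 0.02 over 16 probes of mitochondrial proteases, 0.09 over 24 probes of import channels and 0.07 over 6 probes of iron-sulfur cluster assembly, beside 0.00 over all probes and 0.02 over the 7694 probes with a gene symbol. Limma called 0 of 22176 probes on the whole array, and hence 0 in these and all other lists. At an unadjusted p under 0.05, 1 matrix chaperone probe, 0 protease probes, 3 import probes and 0 iron-sulfur probes were higher in SS, and 1 protease probe was lower. Of the 7694 probes with a gene symbol 451 were higher and 216 lower by the same rule.

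DNAJC15, a J-protein that works with HSPA9 at the import motor, differed by 0.23 (SE 0.08, unadjusted p = 0.0097) at its first probe and by 0.15 at its second. The J-protein of the matrix DNAJA3 gave 0.26, -0.14 and -0.05 at its 3 probes, DNAJC19 gave 0.16, and PAM16 gave -0.13 and 0.04. Among import genes the probes with an unadjusted p under 0.05 were of the small intermembrane chaperones TIMM8A (0.29) and TIMM9 (0.35) and of TOMM34 (0.23), and the outer membrane protein MTX2 differed by 0.37 (unadjusted p = 0.077). TIMM8A was 0.27 within Cy5 and 0.32 within Cy3, whereas TIMM9 was close to 0 within Cy5 and 0.70 within Cy3.

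The inner membrane protease AFG3L2 ran the other way at 1 of its 3 probes. At that probe SS minus LS was -0.39 (SE 0.08), and only 1 of 16 SS tumors exceeded the mean of LS. The probe was called with the orientation as a block (limma adjusted p = 0.020), where 0.424% of all probes were called. The other AFG3L2 probes differed by 0.10 and 0.03, so the probes of the gene disagreed. The proteases SPG7, IMMP1L and HTRA2 differed by between -0.17 and 0.12. In iron-sulfur cluster assembly BOLA3, GLRX5, NFU1 and ISCU differed by between 0.03 and 0.14.

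Of the chaperone lists outside the mitochondrion, the HSP90 list had the largest share of probes with a higher SS mean. Of its 18 probes 16 were higher and 2 lower, with a median difference of 0.19, and 5 were higher at an unadjusted p under 0.05. Of the 7694 probes with a gene symbol 4296 were higher, 451 of them at an unadjusted p under 0.05. HSP90AA1, the inducible cytosolic HSP90, differed by 1.03 (SE 0.32), 0.57 (SE 0.20) and 0.39 (SE 0.19) at its 3 probes. SAM called the first of them, and 0.171% of all probes. HSP90AA1, too, was among the genes the study selected on these arrays. HSP90AB1, its constitutive relative, gave 0.35, 0.25, 0.10 and -0.04 at 4 probes, with unadjusted p from 0.19 to 0.86. HSP90B1 of the endoplasmic reticulum gave 0.59 at the first of 4 probes and 0.09 to 0.14 at the others, and the HSP90 activator AHSA1 gave 0.29. The co-chaperone CDC37 differed by 0.10. Several of these probes did not keep the direction within Cy5, where 3 HSP90B1 probes gave -0.05, -0.36 and -0.52, AHSA1 -0.07 and 2 HSP90AB1 probes -0.08 and -0.28, while all named probes of the list were positive within Cy3.

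The HSP70 and HSP110 list held 4 probes with a median difference of 0.22, of which HSPA4 was higher at an unadjusted p under 0.05 (0.28, SE 0.12), while HSPA5 (0.23), HSPH1 (0.20) and HYOU1 (-0.01) were not. Among the DNAJ proteins and HSP70 cofactors of the cytosol and endoplasmic reticulum 23 of 30 probes were higher (median 0.05). Of the 7694 probes with a gene symbol 4296 were higher, 451 of them at an unadjusted p under 0.05. Over all probes SAM called 0.171% and limma with the block 0.424%. The ER translocon J-protein SEC63 differed by 0.50 (SE 0.13) at 1 probe, which SAM called and which was also called with the block (limma adjusted p = 0.084), and by 0.14 at its second. SEC63 was also among the genes the study chose on these arrays. DNAJC3 differed by 0.32 (SE 0.08) at a probe SAM called and by 0.01 at its second, DNAJC9 by 0.25, and BAG1 by -0.24.

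The cytosolic chaperonin and prefoldin list had 13 of 20 probes higher, a median of 0.05 and 0 probes with an unadjusted p under 0.05 in either direction. Among the 7694 probes with a gene symbol 4296 were higher, and at an unadjusted p under 0.05 451 were higher and 216 lower. CCT6A, PFDN4 and the first CCT8 probe differed by 0.28, 0.39 and 0.29. TCP1 differed by 1.42 with an unadjusted p of 0.14. The small heat shock proteins (median 0.16 over 10 probes) and the heat shock and mitochondrial stress transcription factors (0.04 over 10 probes) also held no probe with an unadjusted p under 0.05. HSPB6 gave -0.23 and 0.09, the first CRYAB probe 0.35, HSPB8 0.45 and HSPB3 0.39 and -0.03. HSF1, the main heat shock factor, gave -0.51, -0.07, -0.08 and 0.04 at 4 probes, ATF4 0.13, PPARGC1A 0.04 and GABPA 0.08.

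Over the 32 tumors the lists differed in how closely they followed the 3 chaperones. The median r with the 6 chaperone probes was 0.32 to 0.52 for the HSP90 list, 0.29 to 0.43 for import channels, 0.28 to 0.35 for the cytosolic chaperonin and 0.22 to 0.42 for matrix chaperones. It was -0.02 to 0.17 for iron-sulfur cluster assembly, -0.05 to 0.16 for small heat shock proteins and -0.16 to 0.06 for the transcription factors. At HSP90AB1 the r with HSPA9 probe 1 was between 0.56 and 0.60 over its 4 probes, and at HSP90AA1 the r with HSPD1 probe 2 was between 0.55 and 0.70 over its 3, whereas with HSPD1 probe 1 the r was 0.24 to 0.32 at HSP90AB1 and 0.19 to 0.37 at HSP90AA1. These r are descriptions over the same 32 arrays, in which the probes share array and normalization.

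**Figure D4:**
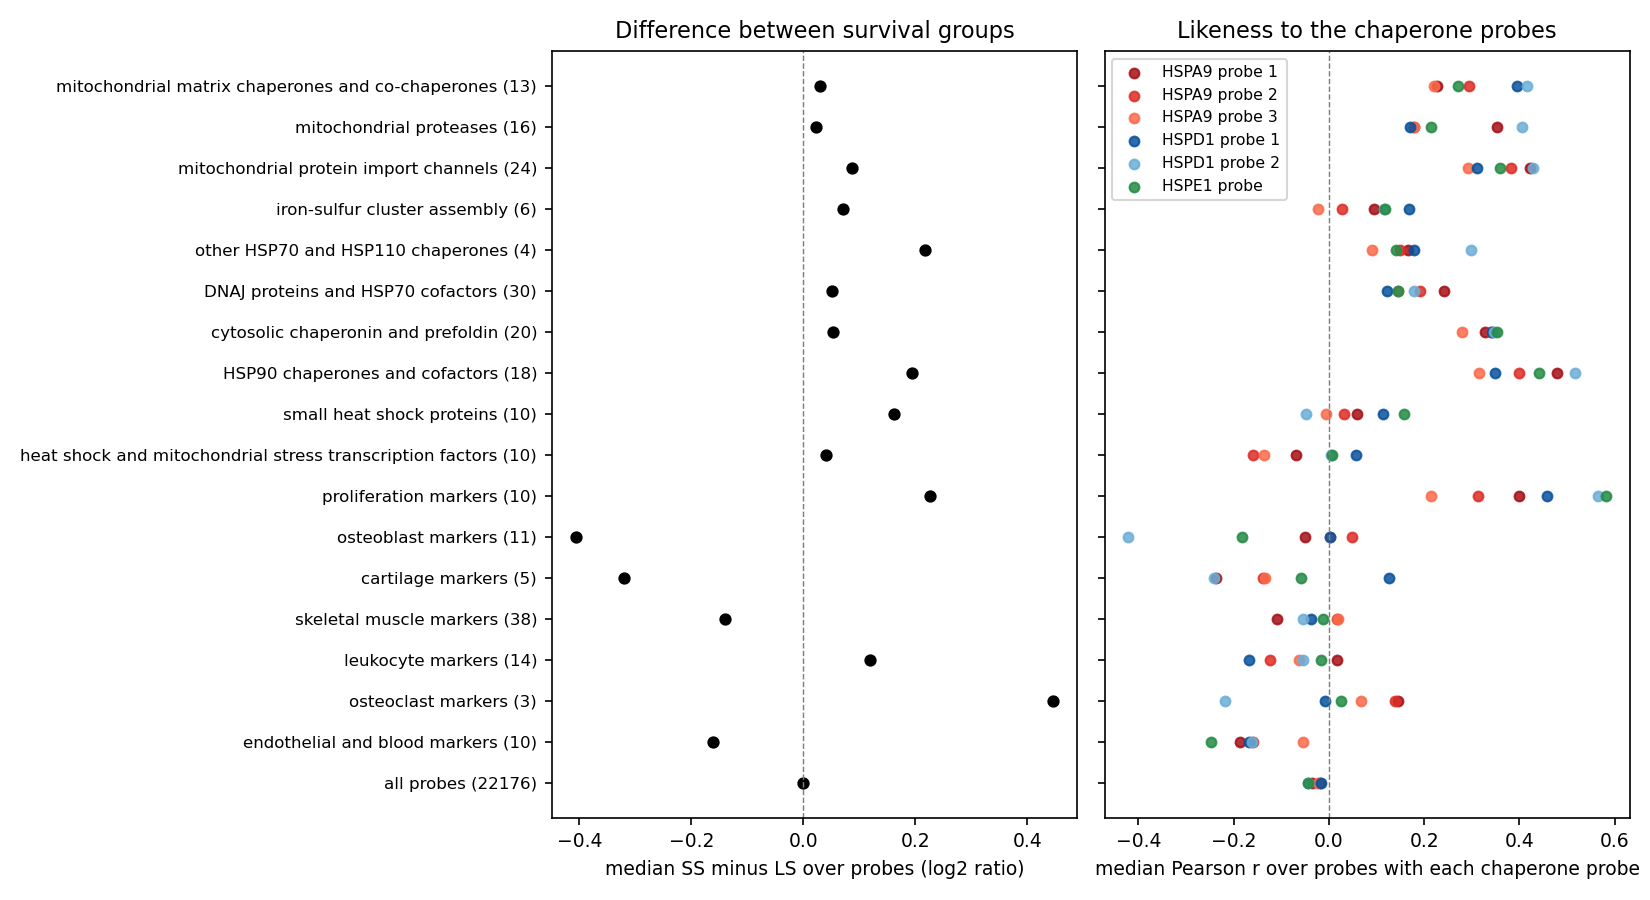
Left, median SS minus LS difference of log2 ratios over the probes of each gene list (number of probes in parentheses). Right, median Pearson r of the probes of each list with each of the 6 chaperone probes over 32 tumors, after centering within survival group and orientation. HSP90, import channel and proliferation lists lie to the right on the right side, while the medians over all probes lie near 0.

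No proliferation marker passed the test across all probes. Of 10 proliferation probes 9 had a higher mean in SS, with a median difference of 0.23. The 10 probes covered only 5 of the 22 listed genes, and 5 of them were of the replication helicase MCM7. Among these 5 MCM7 probes 2 were higher at an unadjusted p under 0.05 (0.20 and 0.25) and 1 was lower. RRM1 (0.39 and 0.16), BIRC5 (0.36) and PCNA (0.30) did not pass. Among the 7694 probes with a gene symbol 4296 were higher, 451 of them at an unadjusted p under 0.05. The mean level of the list ran from -0.59 to 0.56 in SS tumors and from -0.60 to 0.47 in LS tumors. Its median r was 0.58 with HSPE1, 0.46 and 0.56 with the HSPD1 probes and 0.21 to 0.40 with the HSPA9 probes, but the MCM7 probe that was lower in SS had r of -0.47 and -0.57 with HSPA9 probes 2 and 3. The part of the proliferation list in the differences of the chaperones was not tested.

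Markers of other cells and tissues differed in direction, beside 4296 probes higher and 3398 lower among the 7694 with a gene symbol. Of the bone-forming cell markers 9 of 11 probes were lower in SS (median -0.41), but these probes covered only 5 genes. Most of the lower probes were of SPARC, between -0.66 and -0.42 at 5 probes, and of COL1A2, between -0.41 and -0.19. SPP1 was at 0.51, and PHEX at 0.31 was higher at an unadjusted p of 0.022. Cartilage markers COL2A1 and COMP were lower at all 5 probes (median -0.32) and none passed. Skeletal muscle markers were lower at 31 of 38 probes (median -0.14). DES differed by -0.61 (unadjusted p = 0.025), MB by -0.23 at its first probe (unadjusted p = 0.049), the first TTN probe by -0.33, and an ACTN2 probe by 0.32 (unadjusted p = 0.040). The other TTN probes differed by between -0.25 and 0.00 and the other ACTN2 probes by between -0.10 and 0.08.

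Leukocyte markers were higher at 11 of 14 probes (median 0.12), osteoclast markers at 3 of 3 (median 0.45) and endothelial and blood markers at 4 of 10 (median -0.16), none with an unadjusted p under 0.05. Among them CD68 differed by 0.45, LCP1 by 0.23 and -0.03, CD14 by 0.12 and 0.16, CD3D by -0.12, ATP6V0D2 by 0.65, CTSK by 0.45, TNFRSF11A by 0.01 and TEK by 0.04. VWF gave -0.47, 0.15 and -0.09. PECAM1 gave -0.34 at its first probe and between -0.27 and 0.07 at the others. VWF, PECAM1 and TEK were the only genes of the endothelial and blood list with a probe, so its blood markers were not measured. The mean level of the bone-forming list ran from -2.01 to 0.89 in SS and from -3.39 to 1.29 in LS, that of the muscle list from -0.45 to 0.83 and from -0.58 to 1.18, and that of the leukocyte list from -0.61 to 1.48 and from -0.61 to 0.52. Median r with the 6 chaperone probes lay between -0.42 and 0.05 for bone-forming cell markers, between -0.11 and 0.02 for muscle markers and between -0.17 and 0.02 for leukocyte markers. The most negative, -0.42, was that of the bone-forming list with HSPD1 probe 2, where HSPD1 probe 1 had 0.00. The part of these cells in the levels of the chaperones was not tested.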

How the data were processed

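Expression was measured on 32 dual-color cDNA arrays, 1 per tumor. Defective spots were flagged by the authors, who normalized each array by print-tip Lowess, took logarithms and switched the ratios of dye-swapped arrays. The deposited values are these log2 ratios of tumor over pool. The base of the logarithm is not named in the sources used here and was taken as 2 from the values. The direction follows the stated switching. The table held 22176 probes and 5 missing values, 0 of them in chaperone probes. A gene symbol was given for 7694 probes by the platform annotation, and the rest are unnamed here. Survival time, sex, grade and chemotherapy came from the study's table of dogs, matched by tumor number.

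SS and LS were compared with limma 3.58.1 in R 4.3.3 (lmFit, eBayes, two-sided, no covariate, all 32 arrays) and p was adjusted by Benjamini-Hochberg over the 22176 probes, with calls at an adjusted p under 0.10. SAM was rebuilt with 100 permutations and 10 neighbors. Permutation tests of single values and correlations used 100000 resamples in NumPy 2.4.6 and Python 3.11.15. The fits were tested on simulated data. Named genes are every chaperone probe, up to 4 genes of each list with the smallest p, HSP90AA1, HSP90AB1, and the 5 most and 3 least alike genes of each chaperone at its probe with the smallest p. In the gene lists the first probe of a gene is the one with its smallest p. The members and lists were chosen with earlier results of these data known. Alternatives were the orientation as a block or each orientation alone, SAM, scaling or centering of arrays, array weights, covariates, survival time, gene means, Spearman's rho, uncentered values and leaving out each array. The number of arrays limits the precision.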

Additional observations from a re-analysis of the deposited data

Results flagged for a closer look

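In groups of 8 tumors of the same survival group and orientation, 24 in all for the 6 probes, 1 tumor stood apart from the rest by the Dixon criterion. Chance marks about 1 group in 20. It was SS tumor 10 at HSPA9 probe 3 among the Cy3-labeled tumors, with a log2 ratio of 2.14 against 0.75 for the next highest. Without it the SS minus LS difference of that probe was 0.51 instead of 0.64.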

How the results depend on the processing

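The 6 differences between SS and LS kept their sign under every alternative run. Without the block, leaving out each array gave 0.40 to 0.54 for HSPA9 probe 1, 0.42 to 0.58 for probe 2, 0.51 to 0.71 for probe 3, 0.43 to 0.53 for HSPD1 probe 1, 0.51 to 0.69 for probe 2 and 0.39 to 0.52 for HSPE1, with none called. With the block the ranges were 0.40 to 0.54, 0.43 to 0.57, 0.52 to 0.71, 0.43 to 0.53, 0.52 to 0.69 and 0.39 to 0.52, an alternative chosen after seeing the data. There, without SS tumor 7, HSPA9 probe 1 (0.54, limma adjusted p = 0.099), HSPA9 probe 3 (0.68, 0.097), HSPD1 probe 1 (0.52, 0.084) and HSPE1 (0.52, 0.098) passed, and without LS tumor 20 HSPD1 probe 1 (0.53, 0.088) did. With the block and each array left out, limma called between 47 and 447 of 22176 probes, the most without SS tumor 7. Within Cy3, HSPA9 probes 1 and 2 (0.85 and 0.65) and HSPD1 probes 1 and 2 (0.53 and 1.00) passed, where 3.0% of all probes were called as higher in SS. All 6 passed as slopes per log10 unit of survival time: 0.45, 0.48 and 0.53 for HSPA9, 0.48 and 0.66 for HSPD1 and 0.46 for HSPE1. In that fit 3.17% of all probes were called as higher at shorter survival, and it holds the same difference between SS and LS.

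The number of probes called, 0 in the comparison reported, was 94 with the block, 1311 within Cy5, 2129 within Cy3, 38 by SAM, 2 with arrays scaled to a common spread, 3 with array weights, 30 with the covariates, 1616 for survival time and 0 to 2 with each array left out. With the block it ran from 47 without LS tumor 31 to 447 without SS tumor 7. Of the 15 correlations all passed under the alternatives except within Cy3, where 9 did, and all 15 passed with each array left out. The 6 lost were HSPA9 probe 2 with HSPD1 probe 1 and HSPE1, HSPA9 probe 3 with both HSPD1 probes and HSPE1, and the HSPD1 pair. The block gave 2 calls over the gene lists, AFG3L2 and SEC63, where the fit without it gave 0. The cause of these changes was not tested. No paired analysis was possible because each tumor came from a separate dog. Signal over background was not analysed here.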
